A study of Mus musculus with 12 samples.

Results

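The genes followed here are 10 that interferon gamma is known to induce: the guanylate-binding proteins Gbp2, Gbp3, Gbp4, Gbp5, Gbp6 and Gbp7, the immunity-related GTPases Irgm1, Igtp and Iigp1, and the transcription factor Irf1. They were chosen by name, and all 10 were found among the 19369 genes of the Total libraries and the 18574 of the CD45 libraries. The data come from 6 tumours of 4T1, a mouse triple-negative mammary carcinoma line, grown in the mammary fat pad of immunocompetent female BALB/c mice aged 9 to 11 weeks. E, EM1, EM2, EM3 and M were each grown from cells that descend from 1 cell of the line; the study places its clones in epithelial, intermediate and mesenchymal states, without saying beyond their names which is which. The other tumour came from the uncloned parental line. Each group is 1 tumour, so no test between clones is possible. The labels name no gene edit, transgene or drug in any group. Each tumour was dissociated with enzymes and gave both a Total library and a CD45 library, the latter made from cells pulled out by beads against CD45, a surface protein of leukocytes.

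As background, interferon gamma is released mainly by activated T cells and natural killer (NK) cells. It binds the receptor made of Ifngr1 and Ifngr2, the kinases Jak1 and Jak2 on that receptor become active, and genes with GAS elements in their DNA are then induced. Irf1 is an early target and a transcription factor that binds ISRE-like elements of further interferon-induced genes. The guanylate-binding proteins and immunity-related GTPases assemble on membranes around intracellular microbes. Macrophages are the cells in which that defence is best known, but endothelial, epithelial and tumour cells with the receptor can express the same genes. Most of these genes also respond to type I interferon to some degree.

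In the assembly GRCm38, the mm10 build named in the submitters' processing notes, Gbp2 (chr3:142620663-142638008), Gbp3 (chr3:142560016-142573213), Gbp5 (chr3:142496934-142522344) and Gbp7 (chr3:142530336-142550151) lie together on chromosome 3. Gbp4 (chr5:105115767-105139586) and Gbp6 (chr5:105270702-105295871) are on chromosome 5. Irgm1 (chr11:48865245-48871420), Irf1 (chr11:53770014-53778374) and Igtp (chr11:58199556-58207592) are on chromosome 11. RefSeq annotates all 10 as protein-coding. Gene families of this kind share sequence. Of the stretches of 50 bases in Gbp6 transcripts, 70.7% also occur in other genes, among them Gbp10 and Gbp4, so Gbp6 values are uncertain. What such sharing means for the counts depends on the chemistry, which the labels do not settle, since they name a fixed-RNA kit and also 3′ reagents. That share is 12.7% for Gbp7, 11.8% for Igtp, all of it with Irgm2, and 7.70% or less for the other 7 genes, with 0 for Irf1.

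The DNA just upstream of these genes holds matches to the elements that the interferon factors recognise, and 4 windows are shown because between them they hold GAS alone, ISRE alone and both. RefSeq promoters for GRCm38.p6 were matched for 7 of the 10 genes (Gbp2, Gbp3, Gbp5, Gbp7, Irgm1, Igtp and Irf1), which have 9 start windows, and the 250 bases before each start were searched on both strands for GAS as TTCNNNGAA and for ISRE as GAAA, any 2 bases and GAAA again. For Irf1, which has 2 windows, the one with a match is shown. Capitals mark the matches, and each sequence reads 5′ to 3′ on the strand of the gene.
Irf1 (chr11:53769764-53770013, plus strand): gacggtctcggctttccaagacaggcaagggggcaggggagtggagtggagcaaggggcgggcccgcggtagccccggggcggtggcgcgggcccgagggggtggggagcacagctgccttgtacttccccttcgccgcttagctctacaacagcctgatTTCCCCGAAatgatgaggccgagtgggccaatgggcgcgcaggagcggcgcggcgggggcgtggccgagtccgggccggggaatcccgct
Gbp2 (chr3:142620413-142620662, plus strand): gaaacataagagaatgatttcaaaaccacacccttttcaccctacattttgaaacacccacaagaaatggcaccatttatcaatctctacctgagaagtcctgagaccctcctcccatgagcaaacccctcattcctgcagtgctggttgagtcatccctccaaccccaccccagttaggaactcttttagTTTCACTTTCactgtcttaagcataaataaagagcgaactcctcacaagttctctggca
Gbp7 (chr3:142530086-142530335, plus strand): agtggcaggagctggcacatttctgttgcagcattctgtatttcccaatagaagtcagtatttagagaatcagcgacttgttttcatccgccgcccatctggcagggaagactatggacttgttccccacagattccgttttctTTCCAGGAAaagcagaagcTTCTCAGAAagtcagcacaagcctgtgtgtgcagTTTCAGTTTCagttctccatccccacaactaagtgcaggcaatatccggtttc
Igtp (chr11:58199306-58199555, plus strand): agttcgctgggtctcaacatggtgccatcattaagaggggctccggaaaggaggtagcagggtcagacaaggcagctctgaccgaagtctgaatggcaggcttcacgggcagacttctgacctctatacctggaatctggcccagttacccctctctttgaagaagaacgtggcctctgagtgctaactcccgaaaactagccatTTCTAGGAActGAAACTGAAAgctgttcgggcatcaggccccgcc
Irf1 had a GAS match beginning 90 bases before its start and no ISRE match. Gbp2 had an ISRE match 59 bases before its start and no GAS match. Gbp7 had 2 GAS matches, at 106 and 87 bases, and an ISRE match at 53 bases. In Igtp the GAS match at 45 bases and the ISRE match at 34 bases lay almost side by side. In all, 4 of the 7 genes held a GAS match, 6 an ISRE match and 3 both, where a gene with 2 windows counted if either matched. Of all 32851 RefSeq promoters of that length, 7.02% held a GAS match and 2.98% an ISRE match. These shares count single promoters, not genes, so the units differ. These matches are letters in a window, and no binding was measured.

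Levels are given as CPM, the unique molecular identifiers (UMIs, each marking 1 captured RNA molecule) of a gene scaled to 1000000 UMIs of all cells of a class in a library. They allow a gene to be compared between classes and tumours; levels of different genes are not set against each other, since no length scaling was made. The 95% intervals are exact Poisson intervals and cover counting error only. Cell classes are the authors' annotation, whose method is not given in the sources used here; where a class was drawn from the expression of the same cells, its levels are not independent of it. Depth was 38499899 to 122055131 UMIs over 6709 to 13467 cells in the Total libraries, and 28083101 to 57116299 UMIs over 6791 to 11024 cells in the CD45 libraries. The first 16 bases of cell barcodes were shared by 12.2% to 19.1% of cells (of the smaller library) within E and EM3, within EM1 and EM2, within M and within the parental tumour, against 0.686% to 1.91% between other libraries. No whole barcode was shared inside those sets, and up to 189 were shared between libraries of different sets. How libraries were handled together therefore cannot be told apart from clone for the sets that hold 1 clone, nor from what EM1 and EM2 have in common. The names of the tumour-cell and macrophage classes held against their markers: 10 macrophage markers summed to 23114 to 31308 CPM in macrophages and to 138 to 809 CPM in tumour cells, and 7 tumour-cell markers such as Krt8 and Epcam summed to 3022 to 14855 CPM in tumour cells and to 77.2 to 373 CPM in Total-library macrophages.

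Across the classes of the Total libraries, with the class named Unknown left out of the order, the genes were not led by macrophages. On the mean over tumours of log2(CPM + 10), the endothelial class had the highest level of Gbp3, Gbp4, Irgm1, Iigp1 and Irf1, the T/NK class that of Gbp5, Gbp6, Gbp7 and Igtp, and the tumour cells that of Gbp2. Dendritic cells (DC) had the lowest level of 6 of the 10 genes, among them Gbp6 and Iigp1, which rest on at most 4 UMIs a tumour there. In the CD45 libraries of the same tumours dendritic cells were lowest for no gene. In the Total libraries macrophages had the lowest level of 1, Irf1, and tumour cells the lowest of 1, Gbp5. The Unknown class, 8 to 66 cells in 5 tumours, had a mean Irf1 of 6.13 against 6.17 in macrophages. The map of levels by class shows these patterns along each row. Most neighbours in these orders were not separated beyond the spread over tumours. Exact paired permutation tests (two-sided) of 140 neighbouring pairs gave p = 0.03125, the smallest that 6 tumours allow, for 10 of 70 pairs in the Total and 9 of 70 in the CD45 libraries. The adjusted p was 0.23 (Benjamini-Hochberg) for each, so none passed the correction. With that smallest p a pair could pass only if most of the 140 reached it, so the correction cannot decide for single pairs here. For Gbp2 the 4 highest classes, tumour cells, granulocytes, T/NK and endothelial cells, were not separated, while the endothelial class was above fibroblasts by 0.87 (log2) in 6 of 6 tumours. Igtp in the T/NK class was above endothelial cells, the next class, by 1.67 in 6 of 6 tumours. In the T/NK class granulocyte markers summed to 462 to 4275 CPM and dendritic-cell markers to 661 to 1619 CPM, beside T-cell markers at 2264 to 5528 CPM. Their part in these levels was not tested.

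**Figure D1:**
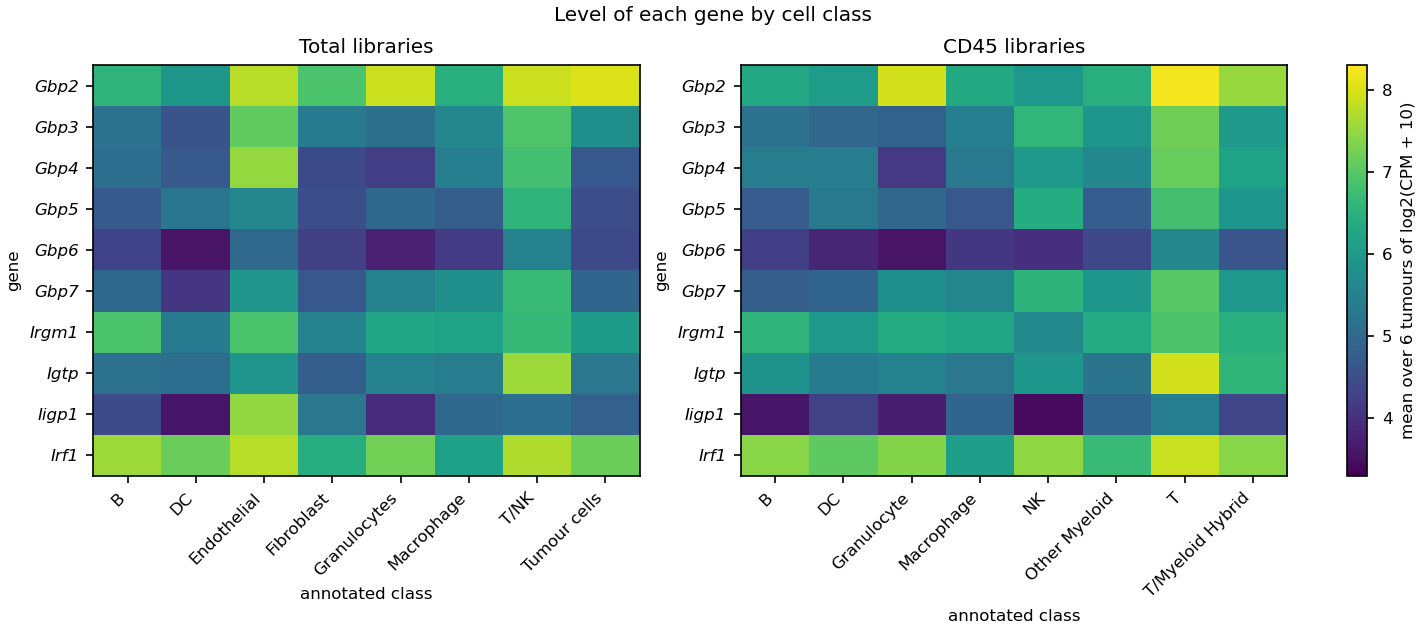
Mean over 6 tumours of log2(CPM + 10) for each gene (rows) and annotated class (columns) in the Total libraries (left) and CD45 libraries (right); colours are to be read along a row. In the CD45 libraries the T column holds the highest value of all 10 rows, and in the Total libraries the endothelial column holds the highest value of 5.

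Iigp1 (chr18:60373616-60392634), a GTPase that coats the vacuoles of intracellular parasites, stood apart in endothelial cells, where it measured 333 (E), 389.6 (EM1), 250.4 (EM2), 193 (EM3), 79.1 (M) and 40.3 CPM (parental). These levels rest on 41 to 269 UMIs from 37 to 147 endothelial cells a tumour. In fibroblasts, the next class in the order, it measured 45.8 (E), 64.5 (EM1), 50.7 (EM2), 32.2 (EM3), 14 (M) and 3.94 CPM (parental). Endothelial cells were higher in 6 of 6 tumours, by 2.19 on the log2(CPM + 10) scale, and the exact paired permutation test over tumours gave p = 0.03125 (two-sided; 0.23 after the correction above). Gbp4, a guanylate-binding protein, measured 486 (E), 270.5 (EM1), 274 (EM2), 178 (EM3), 73.3 (M) and 51.7 CPM (parental) in endothelial cells. In the T/NK class it measured 121 (E), 145 (EM1), 132 (EM2), 98 (EM3), 57.9 (M) and 85.8 CPM (parental). The endothelial level was higher in 5 of 6 tumours, and the exact paired permutation test gave p = 0.09375 (0.355 after that correction), so the difference was within the spread over tumours. Pecam1 and Cdh5, which encode junction proteins of endothelium, measured at least 1891 and 1159 CPM in the endothelial class of every tumour. The summed macrophage markers in that class ranged from 261 to 2205 CPM, the tumour-cell markers from 445 to 2538 CPM and the granulocyte markers from 87.1 to 4057 CPM, and their part in these levels was not tested.

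In the CD45 libraries the T class had the highest mean level of all 10 genes. Its margin over the next class was 0.53 on the log2(CPM + 10) scale for Iigp1, in 5 of 6 tumours (exact paired permutation p = 0.15625, adjusted p = 0.456). For Gbp2 it was 0.26 over granulocytes, in 3 of 6. The T class was above the next class in 6 of 6 tumours for Igtp (1.39), Gbp6 (1.00), Gbp4 (0.94), Gbp7 (0.46) and Gbp5 (0.44), each with an exact p = 0.03125 and an adjusted p = 0.23. Igtp, also named Irgm3, measured 251 (E), 299.6 (EM1), 316 (EM2), 195 (EM3), 156 (M) and 244 CPM (parental) in T cells. In CD45-library macrophages it measured 27.9 (E), 56.4 (EM1), 47.2 (EM2), 31.4 (EM3), 14.8 (M) and 13.1 CPM (parental). The groups did not overlap, since the lowest T-cell level lay above the highest macrophage level. With edgeR's quasi-likelihood test on class sums, tumour as block and TMM scaling, a correction for RNA composition, T cells were 6.35-fold higher (log2 2.67 ± 0.202 SE, adjusted p = 2.96e-16 over 10302 genes). All classes of the CD45 libraries were fitted together, so the p-values of these contrasts rest on a spread pooled over classes.

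The same test found 8 of the 10 genes higher in T cells than in macrophages and 0 lower (at an unadjusted p under 0.05 also 0 lower), beside 43.5% of all 10302 tested genes that were called higher and 35.4% lower. Gbp5, a guanylate-binding protein that promotes inflammasome assembly, was 5.11-fold higher (adjusted p = 8e-13 by edgeR), and Gbp6 3.89-fold (1.15e-14). Gbp4 was 3.27-fold, Gbp2 3.15-fold, Gbp3 2.99-fold, Irf1 2.83-fold and Gbp7 2.25-fold higher. Irgm1, a regulator of the other immunity-related GTPases and of autophagy, differed by 0.27 on the log2 scale (adjusted p = 0.0997) and Iigp1 by 0.29 (adjusted p = 0.244). Both were called higher without EM1 (0.40 and 0.70), and Irgm1 also without EM2 (0.39). TMM moved the median gene by -0.46 on the log2 scale in this contrast. Without TMM all 10 genes were called higher, Irgm1 by 0.72 and Iigp1 by 0.79, and 0 lower, beside 59.9% of all genes higher and 23.7% lower. The share of all calls that were higher in T cells was then 71.7% in place of 55.1%. The summed dendritic-cell markers, a list that holds Ccr7, were 942 to 2417 CPM in T cells against 29.9 to 50.9 CPM in macrophages, and macrophage markers were 1417 to 3360 CPM in T cells; their part was not tested.

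Granulocytes showed a split within the family. Gbp2 measured 306 (E), 703 (EM1), 212 (EM2), 213 (EM3), 189 (M) and 92.4 CPM (parental) in CD45-library granulocytes, and 98.4 (E), 127 (EM1), 129 (EM2), 83 (EM3), 29.4 (M) and 27.8 CPM (parental) in macrophages of the same libraries. Each tumour's granulocytes were above its macrophages, and edgeR gave a 6.29-fold higher level (adjusted p = 8.99e-11). Irf1 was 4.96-fold higher (adjusted p = 4.13e-15) and Gbp5 3.04-fold higher (3.28e-07). Iigp1, Gbp6 and Gbp4 were lower in granulocytes, by log2 changes of -1.91, -1.35 and -1.18 (adjusted p = 4.44e-06, 1.11e-04 and 7.95e-04). Their granulocyte levels rest on few UMIs a tumour, 1 to 20 for Iigp1, 0 to 8 for Gbp6 and 2 to 41 for Gbp4. The other genes called higher were Gbp7 (1.22), Irgm1 (1.10) and Igtp (1.27), as log2 changes. Of the 10 genes, 6 were called higher and 3 lower, beside 38.1% and 40.0% of all tested genes. TMM moved the median gene by 0.87, the largest such shift of the 7 CD45 contrasts. Without TMM the levels were 3.42-fold (Gbp2), 2.68-fold (Irf1) and 1.65-fold (Gbp5) higher, and 22.9% of all calls were higher in place of 48.8%. Gbp2, Gbp5 and Irf1 were then the 3 genes of the set called higher, and 4 were lower, beside 19.3% and 64.7% of all genes. The calls for Gbp7, Irgm1 and Igtp were lost (edgeR adjusted p = 0.0586, 0.211 and 0.0805). Gbp3, at 0.04 with TMM, turned to -0.83 without it (adjusted p = 2.82e-06). Macrophage markers summed to 12377 to 14538 CPM in granulocytes, beside granulocyte markers at 135077 to 204662 CPM; their part was not tested.

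NK cells, a main source of interferon gamma, had higher Gbp5, Gbp3 and Irf1 than macrophages (log2 changes of 1.81, 0.96 and 0.92, edgeR adjusted p = 3.56e-04, 4.13e-04 and 0.00278). Irgm1 was lower by a log2 change of -1.12 (adjusted p = 0.00132), a call lost without TMM (0.0713). Iigp1 was also called lower; it was listed at 0 UMIs in the NK cells of 5 of 6 tumours and at 1 UMI in EM1, from 38 to 132 NK cells a tumour. The set counted 3 higher and 2 lower, beside 25.3% and 29.7% of all tested genes. In NK cells Gbp2 (-1.03), Gbp4 (0.31), Gbp6 (-0.37), Gbp7 (0.49) and Igtp (0.50) did not pass (log2 changes, edgeR adjusted p of 0.098 to 0.596). Without TMM, Gbp7 and Igtp were called higher as well, which gave 5 higher and 1 lower, beside 39.5% and 18.2% of all genes. Gbp7 was also called higher without EM1 (0.71). In NK cells the granulocyte markers summed to 1116 to 5006 CPM, the macrophage markers to 1457 to 3337 CPM and the dendritic-cell markers to 209 to 981 CPM, beside NK-cell markers at 1735 to 6578 CPM; their part was not tested.

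B cells had higher Irf1 (log2 1.07, edgeR adjusted p = 1.94e-05) and Igtp (0.98, 6.49e-04) and lower Gbp7 (-0.95, 0.00102) and Gbp3 (-0.52, 0.0224). Iigp1 was also called lower, and was listed at 0 in the B cells of 4 of 6 tumours. That gave 2 higher and 3 lower, beside 36.6% and 33.1% of all genes. In B cells Gbp2 (-0.15), Gbp4 (0.18), Gbp5 (0.43), Gbp6 (0.11) and Irgm1 (-0.061) did not pass (log2 changes, edgeR adjusted p of 0.282 to 0.792). Without TMM the call for Gbp3 was lost (0.336), and 48.2% of all genes were called higher and 24.7% lower. Dendritic cells had higher Irf1 (1.10) and Gbp5 (1.08) and lower Iigp1 (-0.93), Gbp7 (-0.86), Gbp6 (-0.73) and Gbp3 (-0.64), beside 27.3% of all genes called higher and 22.1% lower. In dendritic cells Gbp2 (-0.28), Gbp4 (0.089), Irgm1 (-0.22) and Igtp (0.33) did not pass (log2 changes, edgeR adjusted p of 0.256 to 0.817). In B cells Gbp3 lost its call without EM2 (-0.53) or EM3 (-0.44). In dendritic cells Gbp6 lost its call without EM1 (-0.59) or EM3 (-0.64), and Iigp1 without EM2 (-0.67). The dendritic-cell level of Gbp6 rests on 0 to 14 UMIs a tumour. The macrophage markers summed to 4697 to 14321 CPM in dendritic cells, above their own dendritic-cell markers at 2325 to 4458 CPM. In B cells the granulocyte markers summed to 1914 to 9117 CPM and the plasma-cell markers to 514 to 16492 CPM, beside B-cell markers at 3055 to 7840 CPM. Their part in these changes was not tested. In the Total libraries the B class held plasmacytoid dendritic-cell markers at a median of 2340 CPM, beside B-cell markers at 2315 CPM.

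Irf1 was the 1 gene of the set called higher than in macrophages in all 7 contrasts of the CD45 libraries, with TMM and without. Without the block it was not called in Other Myeloid cells (edgeR adjusted p = 0.301). The 7 contrasts share the same macrophage sums, and how many of all genes pass all 7 was not counted. In Other Myeloid cells the log2 change of Irf1 was 0.46 (edgeR adjusted p = 0.0409) and that of Gbp3 0.40 (0.0159). These were the 2 genes called higher, and 0 were called lower, also at an unadjusted p under 0.05, beside 19.9% and 20% of all genes. In this class Gbp2 (-0.023), Gbp4 (0.23), Gbp5 (0.029), Gbp6 (0.37), Gbp7 (0.20), Irgm1 (-0.056), Igtp (-0.24) and Iigp1 (-0.18) did not pass (log2 changes, edgeR adjusted p of 0.0978 to 0.967). Without E neither Irf1 nor Gbp3 was called (0.36 and 0.33), and Irf1 was not called without EM3 (0.47) or the parental tumour (0.40). Plasmacytoid dendritic-cell markers summed to 262 to 783 CPM in Other Myeloid cells against 1.25 to 3.15 CPM in macrophages, and macrophage markers to 19888 to 26540 CPM; their part was not tested. Without TMM, 4 were higher and 0 lower, beside 34.8% and 7.19% of all genes. In the class the authors named T/Myeloid Hybrid, Irf1 (1.24), Gbp5 (1.30), Igtp (1.29), Gbp6 (0.91) and Gbp3 (0.55) were higher and Iigp1 lower (-1.23, adjusted p = 0.0456), beside 20.9% and 21.4% of all genes. In the hybrid class Gbp2 (0.85), Gbp4 (0.67), Gbp7 (0.21) and Irgm1 (-0.00097) did not pass (log2 changes, edgeR adjusted p of 0.0585 to 0.998). Without TMM, 7 were higher and 0 lower (28.9% and 12.8% of all genes). Leaving out EM1 (-0.94), EM2 (-1.09), EM3 (-1.20) or M (-1.23) ended the call for Iigp1. Gbp3 lost its call without E (0.59), EM2 (0.47), EM3 (0.51) or the parental tumour (0.52), Gbp6 without E (0.87), EM3 (0.82) or M (0.82), and Gbp5 without M (1.02). Gbp2 was called without E (1.05) or EM3 (1.13). The hybrid class held 29 to 83 cells a tumour, with 0 to 6 UMIs of Iigp1 and 0 to 10 of Gbp6. Its macrophage markers summed to 9386 to 15555 CPM, its granulocyte markers to 8002 to 33586 CPM and its T-cell markers to 1472 to 2840 CPM.

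The tumour block and the scaling set part of these counts. TMM moved the median gene by -0.33 in B cells, -0.49 in NK cells, -0.22 in Other Myeloid cells, -0.22 in T/Myeloid Hybrid cells and 0.01 in dendritic cells. The share of all calls that were higher went from 52.5% to 66.2% in B cells without TMM, from 45.9% to 68.4% in NK cells, from 49.9% to 82.9% in Other Myeloid cells and from 49.4% to 69.4% in T/Myeloid Hybrid cells. Without the block, 1 gene of the set was lower in B cells (32.1% of all genes), 0 in dendritic cells (19.4%) and 1 in NK cells (29.1%). Without it, 0 were higher in Other Myeloid cells (16.2%), and 2 were higher and 0 lower in T/Myeloid Hybrid cells (20.2% and 19.7%).

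Tumour cells and macrophages of the same tumour were then compared in the Total libraries, to ask which compartment held more of each RNA. Gbp2 and Irf1 were higher in the tumour cells, and Gbp7 and Gbp4 lower, whichever scaling was used. The tumour-cell class held 773 to 5894 cells and the macrophage class 1229 to 3954 cells a tumour. Levels and ratios of single tumours are CPM without TMM, while edgeR values are with TMM unless stated. By CPM, 56.5% (parental) to 65.4% (E) of the 13943 genes tested were higher in tumour cells.

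Gbp2 measured 235 (E), 338 (EM1), 327 (EM2), 276 (EM3), 202 (M) and 177 CPM (parental) in tumour cells. In macrophages it measured 96.4 (E), 145 (EM1), 142 (EM2), 79.7 (EM3), 38.5 (M) and 32.8 CPM (parental). By CPM, without TMM, the classes did not overlap: the lowest tumour-cell level lay above the highest macrophage level. That margin, 177 against 145 CPM, was not checked with TMM. The ratio in a tumour ran from 2.30 in EM2 to 5.41 in the parental tumour. EdgeR gave a 2.55-fold higher level in tumour cells with TMM (log2 1.35 ± 0.224 SE, adjusted p = 3.26e-04) and 3.29-fold without it.

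Irf1, the transcription factor of the set, measured 233 (E), 157 (EM1), 195 (EM2), 115 (EM3), 107 (M) and 68 CPM (parental) in tumour cells. In macrophages it measured 50 (E), 129 (EM1), 93 (EM2), 64.5 (EM3), 47.2 (M) and 27.9 CPM (parental). The ranges overlapped between tumours, but by CPM, without TMM, tumour cells were above macrophages in 6 of 6 tumours. The ratio ran from 1.21 in EM1 (95% interval 1.13 to 1.31) to 4.66 in E (4.29 to 5.07). TMM moved the median gene by -0.36 on the log2 scale in this contrast, a larger step than the log2 ratio of 0.278 in EM1. EdgeR gave a 1.72-fold higher level with TMM (log2 0.78 ± 0.187 SE, adjusted p = 0.00353) and 2.21-fold without it. Without the tumour block the call was lost (adjusted p = 0.101).

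**Figure D2:**
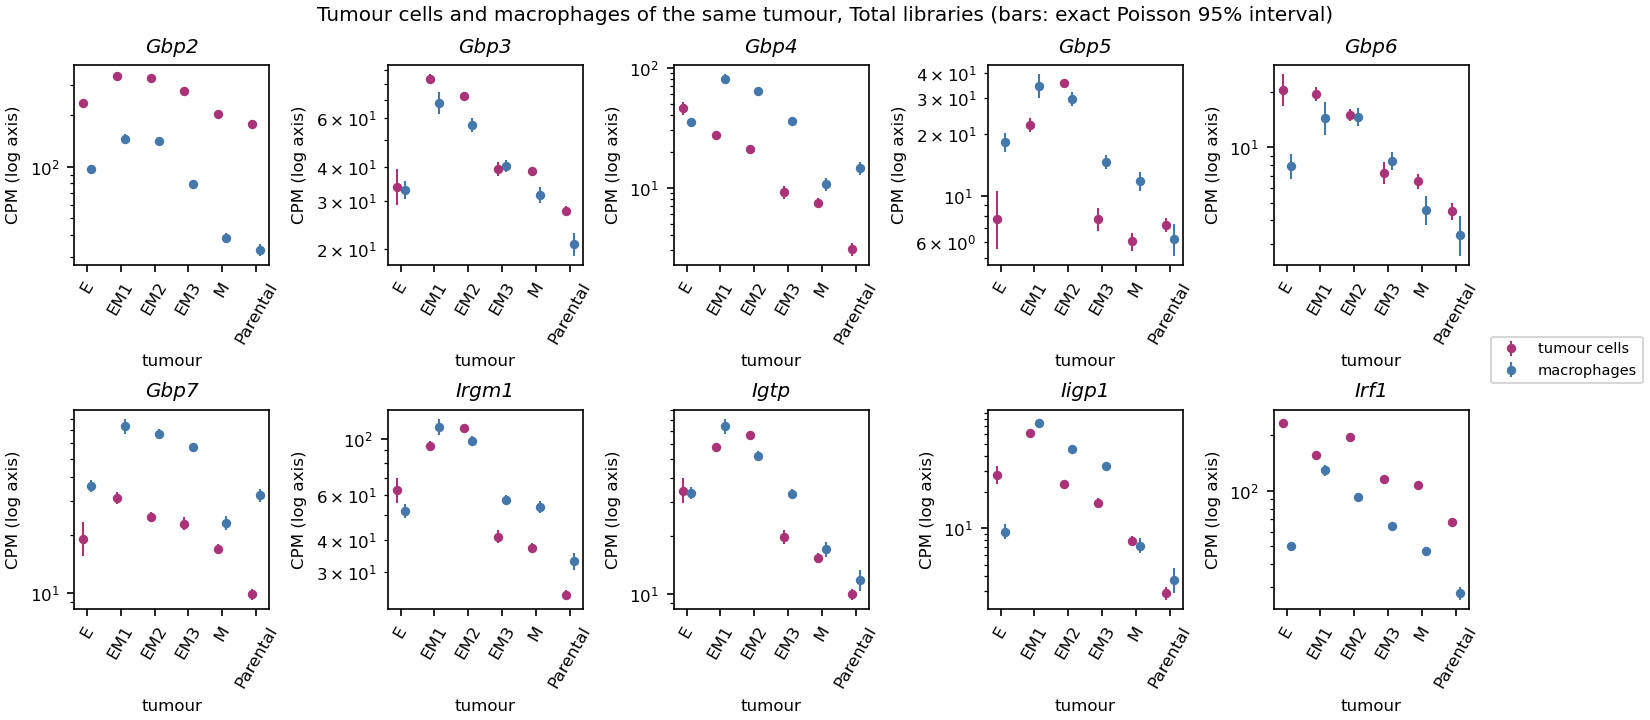
CPM (log axis) of each gene in tumour cells and in macrophages of each tumour, Total libraries; points are class sums and bars exact Poisson 95% intervals. Tumour cells lie above macrophages in all 6 tumours for Gbp2 and Irf1 and below them in all 6 for Gbp7.

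Gbp7 measured 19.2 (E), 31.3 (EM1), 24.8 (EM2), 22.9 (EM3), 17 (M) and 9.87 CPM (parental) in tumour cells. In macrophages it measured 36.1 (E), 73.8 (EM1), 67.1 (EM2), 57.5 (EM3), 23.2 (M) and 32.2 CPM (parental). Tumour cells were lower in 6 of 6 tumours, with ratios from 0.306 in the parental tumour to 0.734 in M, and edgeR gave a log2 change of -1.55 ± 0.158 SE (adjusted p = 9.38e-06). Gbp4 measured 45.9 (E), 27.4 (EM1), 21 (EM2), 9.16 (EM3), 7.47 (M) and 3.06 CPM (parental) in tumour cells. In macrophages it measured 35.4 (E), 81 (EM1), 63.8 (EM2), 35.8 (EM3), 10.6 (M) and 14.4 CPM (parental). It was lower in the tumour cells of 5 tumours; E was the exception, with a ratio of 1.30, its 95% interval starting at 1.11. Among tumour cells without a UMI of any macrophage marker the ratio in E was 0.664, with an interval that held 1 (0.137 to 1.95), and Gbp4 was lower in 6 of 6 tumours, beyond counting error in 3. EdgeR gave -1.63 ± 0.285 SE (adjusted p = 4.76e-04).

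For the other 6 genes the answer depended on the scaling or did not pass. With TMM, Gbp5, Irgm1 and Igtp were called lower in tumour cells, by log2 changes of -0.89, -0.58 and -0.55 (adjusted p = 0.0072, 0.00113 and 0.00625 by edgeR). Without TMM their changes were -0.53, -0.21 and -0.18 and none was called (0.0519, 0.158 and 0.274). Gbp3 was at -0.14 with TMM and 0.22 without (0.310 and 0.0665), and Gbp6 at 0.06 and 0.42 (0.797 and 0.0967). TMM moved the median gene by -0.36 in this contrast, and 49.7% of all calls were higher in tumour cells with TMM against 62.7% without. In all, 2 of the 10 genes were called higher and 5 lower with TMM, and 2 higher and 2 lower without, beside 48.6% and 28.9% of all genes. Without the block 1 was higher and 2 lower, beside 36.5% and 33.5% of all genes (70.0% in all). Of the 13943 genes tested, 75.5% were called, 37.5% higher and 38.0% lower, so 7 calls among 10 genes is close to the share of all genes.

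Iigp1 differed in direction between tumours. It measured 27.7 (E), 61.8 (EM1), 23.3 (EM2), 16.2 (EM3), 7.87 (M) and 2.9 CPM (parental) in tumour cells. In macrophages it measured 9.4 (E), 74.4 (EM1), 45.7 (EM2), 33 (EM3), 7.2 (M) and 3.72 CPM (parental). The ratio was 2.94 in E (95% interval 2.36 to 3.67), below 1 in EM1, EM2 and EM3, and its interval held 1 in M and the parental tumour. EdgeR did not call it (log2 -0.55, adjusted p = 0.0837); without E the change was -0.85 (adjusted p = 0.00300).

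**Figure D3:**
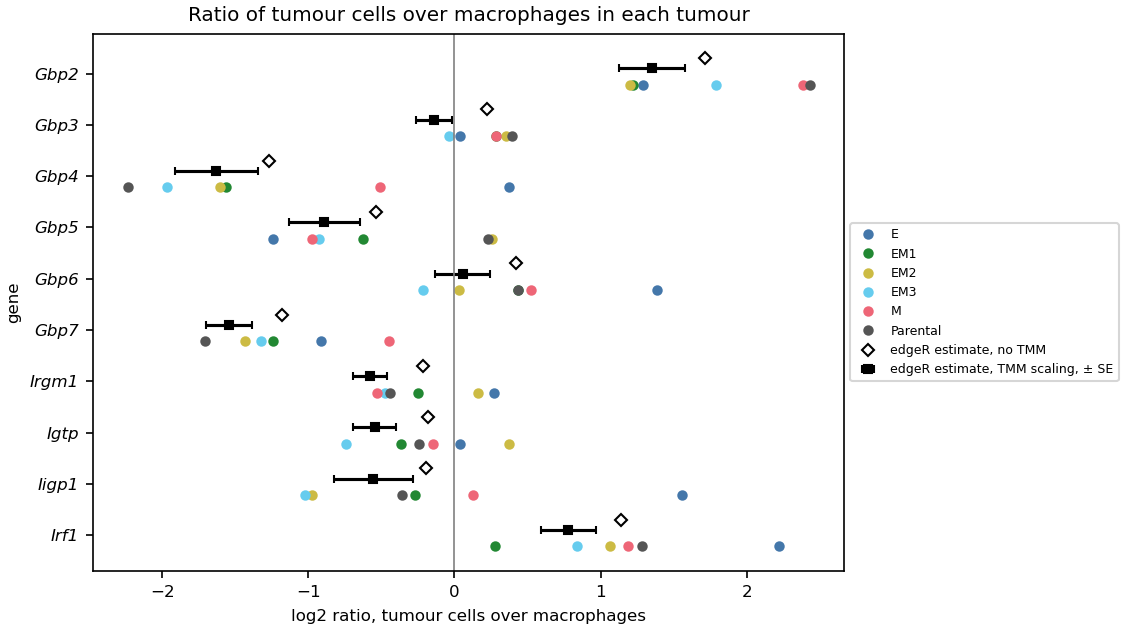
Log2 ratio of tumour cells over macrophages for each gene. Coloured points are the CPM ratios of the 6 tumours, without TMM. Black squares are the edgeR estimate with TMM and its SE, and open diamonds the estimate without TMM. Gbp2 and Irf1 lie above 0 in every tumour, Gbp7 below 0 in every tumour, and the estimates for Gbp3 lie on either side of 0.

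Macrophage RNA in the tumour-cell sums was followed with the 10 macrophage markers. Their median level in tumour cells was 0.313% of that in macrophages in EM1, 0.627% in M, 0.802% in the parental tumour, 1.43% in EM3 and 3.27% in E, with EM2 between EM1 and M. The highest single marker reached 10.2%, in E. In the same tumours the genes of the set stood at no less than 21.2% of the macrophage level, and their medians at 65.7% to 125%. None of the 10 markers was at 0 in the tumour cells of all tumours. Tumour cells without a UMI of any macrophage marker numbered 7 of 1947 in EM3 and 21 of 773 in E, up to 999 of 2852 in EM1. A cell with fewer UMIs is more likely to hold none of a marker, and the depth of these cells was not compared. Among them Gbp2 was higher than in macrophages in 6 of 6 tumours and Irf1 in 5 of 6. Gbp7 was lower in 5 of 6, beyond counting error in 3, with a ratio of 1.30 in E. In those cells Iigp1 was lower beyond counting error in 3 of 6 tumours and listed at 0 in the few cells of E and EM3, and edgeR called it lower (log2 -1.34, adjusted p = 0.00039), as it did Gbp3 (-0.37, 0.0309). Macrophages of the CD45 library gave the same direction for Gbp2, Irf1 and Gbp7 in 6 of 6 tumours. The macrophages of the 2 libraries of a tumour had ratios of 0.808 to 1.74 (median 1.10) over 60 pairs of gene and tumour, and 27 of the 60 intervals held 1.

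**Figure D4:**
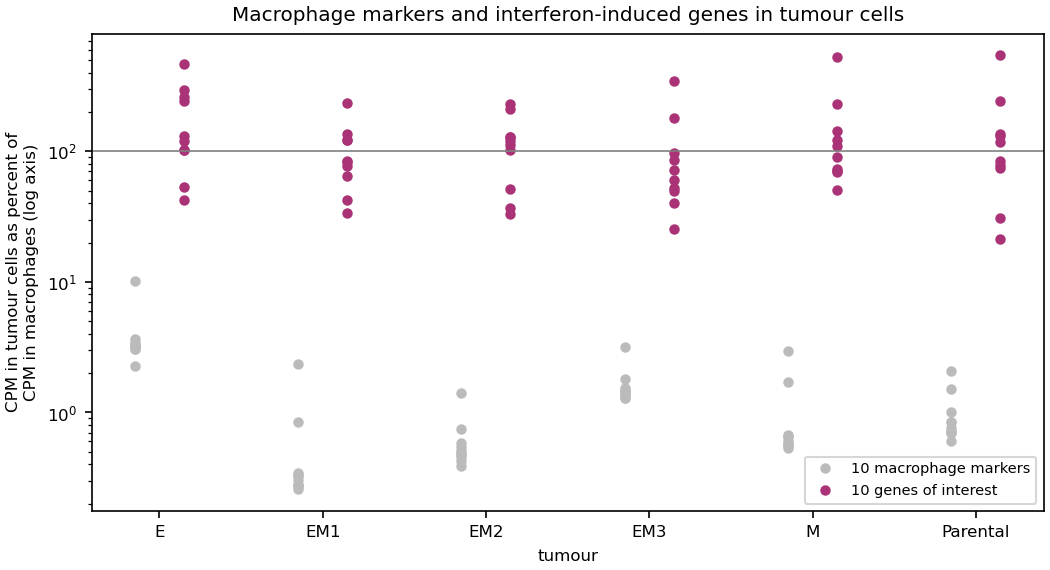
CPM in tumour cells as a percent of CPM in macrophages of the same tumour (log axis), for the 10 macrophage markers (grey) and the 10 interferon-induced genes (purple). The grey medians range from 0.313% to 3.27%, and every purple point lies at 21.2% or more.

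Between tumours the 10 genes moved in parallel in most classes, with EM1 or EM2 at the top and the parental tumour or M at the bottom. In Total-library macrophages EM1 had the highest level of 9 of the 10 genes and the parental tumour the lowest of 8, where EM1 was highest for 9.87% of all genes of at least 5 CPM and the parental tumour lowest for 7.29%. Irf1 in macrophages was 129 CPM in EM1 (95% interval 121 to 138) and 27.9 CPM in the parental tumour (95% interval 25.6 to 30.3). Gbp2 there was 145 CPM in EM1 (95% interval 136 to 154) and 32.8 CPM in the parental tumour (95% interval 30.4 to 35.4). The intervals did not overlap, but with 1 tumour per clone they cannot show a difference between clones. CD45-library macrophages, from the same tumours, repeated the order: EM1 was highest for 9 genes (8.56% of all genes), the parental tumour lowest for 7 (7.76%) and M for 3 (9.06%).

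Other host cells gave a similar order. In granulocytes of the Total libraries EM1 was highest for 8 of the 9 genes of at least 5 CPM (13.2% of all genes) and the parental tumour lowest for 8 (14.0%); Gbp2 there ranged from 96.8 CPM in the parental tumour to 633 in EM1. In CD45-library granulocytes EM1 was highest for 8 of 8 (7.48%), and in the Other Myeloid class for 10 of 10 (12.1%). In endothelial cells EM1 was highest for 8 of 10 (21.8%) and the parental tumour lowest for 8 (12.5%). In fibroblasts the parental tumour was lowest for 10 of 10 (10.2%), E highest for 5 (36.1%) and EM1 for 4 (12.9%).

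Tumour cells and T cells followed it in part. In tumour cells the parental tumour was lowest for 9 of 10 genes (12.3% of all genes) and M for 1 (17.5%). The highest level lay in EM1 for 4 (10.3%), EM2 for 3 (15.1%) and E for 3 (30.1%). Among tumour cells without a UMI of any macrophage marker, the parental tumour was lowest for 4 genes and clones other than M for 6. EM1, E and EM3 were each highest for 3 and EM2 for 1. Shares of all genes were not counted for these cells. With 21 cells in E and 7 in EM3, a few UMIs or none can set these places. The lowest ratio to macrophages there was 0 for Gbp5, Gbp6, Irgm1 and Iigp1. Gbp4 in tumour cells ranged from 3.06 CPM in the parental tumour to 45.9 in E, and Igtp from 9.96 CPM in the parental tumour to 66.8 in EM2. In the T/NK class EM1 and EM2 were each highest for 5 genes (18.9% and 12.8%), while M was lowest for 7 (20.3%). Gbp2 in T/NK cells measured 311 CPM in the parental tumour, next to 320.4 in EM1. In CD45-library T cells it was highest in the parental tumour, at 421 CPM. NK cells followed this order less closely, with E highest for 3 of 9 genes (13.5%), EM2 for 3 (13.8%), EM1 for 2 (12.8%) and M for 1 (22.8%). Their lowest level lay in EM2 for Gbp2, EM3 for Gbp3 and Gbp5, and E for Gbp7 and Irf1. For the rest of the 9 it lay in M or the parental tumour.

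**Figure D5:**
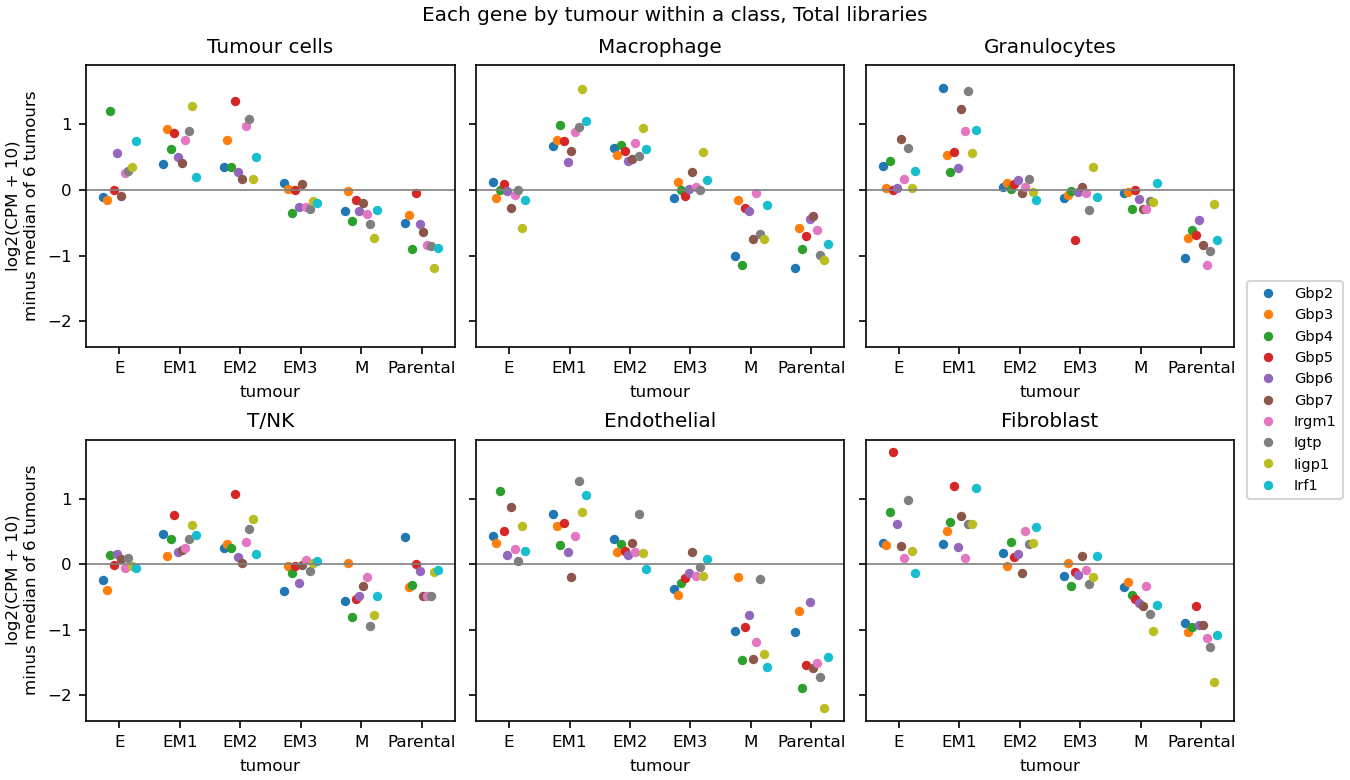
Each gene's log2(CPM + 10) minus its median over the 6 tumours, within 6 classes of the Total libraries; 1 point per gene and tumour. In macrophages, granulocytes, endothelial cells and fibroblasts the parental points lie below 0, and in macrophages the EM1 points lie above 0.

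Depth differed between the libraries. The median cell of the Total libraries held 2351 (E), 4679 (EM1), 6266 (EM2), 7812 (EM3), 6490 (M) and 10042 UMIs (parental). In the CD45 libraries it ran from 1557 in M and 1663 in EM1 to 3453 in EM3, with 3041 in the parental tumour. With cells thinned to 1500 UMIs, EM1 was highest for 9 genes in macrophages and 4 in tumour cells, and the parental tumour lowest for 9 in each. Cells with fewer UMIs than that cannot be thinned to it. In EM1 the 553 granulocytes of the Total library held 543406 UMIs in all and the 1522 T/NK cells 2062959, so some lay below that depth. The part of such cells in the counts that follow was not tested. In granulocytes, thinning took EM1 from the highest of 9 of all 10 genes to 6 and the parental tumour from the lowest of 9 to 6. There M went from the highest of 0 genes to 2, and tumours other than M and the parental from the lowest of 1 to 3. In endothelial cells both went from 8 to 6. In fibroblasts EM1 went from 4 to 6, E from 5 to 1 and the parental tumour from 10 to 7. In the T/NK class M went from the lowest of 7 genes to 5 and EM2 from the highest of 5 to 3, while E and the parental tumour became highest for 1 each. Shares of all genes after thinning were not counted. The barcode sets named above cannot be told apart from clone for M and the parental tumour, nor from what EM1 and EM2 have in common. Differences between EM1 and EM2, or between E and EM3, lie within a set.

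Of the genes upstream of the set, the ligand Ifng had its highest levels in classes with lymphocytes. In CD45-library NK cells it measured 322 (E), 558 (EM1), 131 (EM2), 7.45 (EM3), 41.3 (M) and 51.5 CPM (parental), and in T cells 64.6 (E), 83.9 (EM1), 18.7 (EM2), 40.7 (EM3), 71.1 (M) and 8.61 CPM (parental). Macrophages and tumour cells of the Total libraries held at most 1.64 and 0.774 CPM. EM1, the tumour with the highest levels of the set in macrophages, also had the highest Ifng in both NK and T cells of the CD45 libraries, while in the T/NK class of its Total library Ifng was 41.2 CPM, below E, EM2 and EM3. The T/Myeloid Hybrid class ranged from 0 to 178 CPM. The NK-cell values rest on few UMIs, from 1 in EM3 and 3 in the parental tumour to 86 in EM1.

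Of 14 genes listed for interferon gamma and its signalling, 13 could be tested between tumour cells and macrophages, and 3 were higher and 8 lower in tumour cells, with a median log2 change of -0.74 against 0.01 over all genes, beside 37.5% of all genes called higher and 38.0% lower, shares that also apply to the lists that follow. Without TMM 4 were higher and 7 lower (48.6% and 28.9% of all genes), and without the block 2 and 7 (36.5% and 33.5%). Both receptor chains were lower, Ifngr1 by -1.95 (edgeR adjusted p = 1.37e-07) and Ifngr2 by -1.39 (3.47e-06), as was the kinase Jak1 by -0.46 (0.0033), while Jak2 was higher by 0.64 (0.0055). The call for Jak1 was lost without TMM (0.344). Socs1, a feedback inhibitor of the kinases, was higher by 1.41 (adjusted p = 6.93e-04), and Nlrc5, a transactivator of MHC class I genes, by 0.92 (7.42e-04), a call lost without the block (0.0582).

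Of 16 other interferon-inducible GTPases, 9 were in the table and 8 were tested: Gbp2b (0.76, adjusted p = 0.0066 by edgeR) and Tgtp1 (0.97, 0.039) were higher in tumour cells, and Gbp8 (-2.96, 6.96e-05), Gvin1 (-2.28, 2.50e-05) and Ifi47 (-0.52, 0.019) lower. The call for Ifi47 was lost without TMM (0.364), where Gbp9 was also called higher. Of the type I interferon list, 13 of 14 tested genes were lower in tumour cells and 1, Oasl2, higher (0.35, adjusted p = 0.00795), with a median of -2.39; without TMM 12 were lower and 1 higher. Without the block Oasl2 was not called, and of the other GTPases 0 were higher (0.53 for Gbp2b and 1.21 for Tgtp1) and 2 lower. Isg15, a ubiquitin-like modifier induced by type I interferon, measured 54.8 (E), 20.5 (EM1), 44.3 (EM2), 33.3 (EM3), 75.9 (M) and 45.5 CPM (parental) in tumour cells and 324 (E), 124 (EM1), 131 (EM2), 106 (EM3), 150.4 (M) and 106 CPM (parental) in macrophages. In T cells against CD45-library macrophages, 9 signalling genes were higher and 3 lower, 8 of 8 other GTPases were higher, and 9 of 14 type I genes were lower, beside 43.5% of all genes higher and 35.4% lower. Without TMM, 3 of those 14, Usp18, Ifit3 and Ifit1, were called higher and 8 lower, beside 59.9% and 23.7% of all genes.

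Over 89 class sums of at least 50 cells from the 12 libraries, 9 of the 10 genes had a mean of at least 20 CPM, and their 36 pairs had Pearson r of 0.297 to 0.866 (median 0.620) on the log2(CPM + 10) scale. The median r between these genes and all 7610 genes of that level was 0.106. The genes outside the set whose levels were most like it were Ifi47 (mean r 0.687), Irgm2 (0.666), Dtx3l (0.648), Nlrc5 (0.623), Gbp2b (0.622), Parp14 (0.592), Gbp9 (0.591) and H2-T22 (0.582). Ifi47, Irgm2, Gbp2b and Gbp9 are GTPases of the same families, and Dtx3l and Parp14 encode an E3 ligase and an ADP-ribosyltransferase induced by interferon. Class sums of a library share its depth, and those of a tumour share the animal, so these values are a description.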

How the data were processed

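Cell Ranger and the build mm10 are named in the submitters' processing notes. Per the labels' protocols tumours were digested, red cells lysed and cells fixed with a fixed-RNA kit. The labels also name 3′ reagents, so they do not settle the chemistry. Cell barcodes were 24 bases long in every library, and the chemistry was not inferred from that length. The authors deposited whole-number UMI counts per gene and cell, after a filter on cells whose limits are not given in the sources used here, together with a table of each cell's annotation. That table also gives each cell's UMI and gene counts.

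From these, cells resembling simulated doublets were removed (2646 of 115612, 2.29%; the limit was the median of 12 library-specific valleys, 0.273), and counts were summed per library and class for 6 tumours. Class differences were tested with edgeR 4.0.16 (glmQLFTest, TMM, filterByExpr, tumour as block, Benjamini-Hochberg over all tested genes, called at an adjusted p below 0.05). Sums of the CD45 libraries had to hold at least 20 cells. No such minimum was set for tumour cells against macrophages. The fit on tumour cells without macrophage markers therefore includes a sum of 7 cells, in EM3. The tumour pairs the sums because both come from the same animal. The p-values treat the 6 tumours, of different clones, as replicates of a class difference. All classes of the CD45 libraries were fitted together and share an estimate of the spread. Their p-values therefore rest on more sums than those of tumour cells against macrophages, and on a spread pooled over classes of the same animals. Neighbouring classes were compared by an exact paired permutation test. The fit was tested on simulated data. Alternatives were DESeq2 1.42.0, no TMM, no filter, no block, other cell sets and leaving out each tumour; the fit of the CD45 libraries without TMM was added after seeing the data. The genes and lists were chosen with earlier results of these data known. All 10 genes are given for every contrast, with levels by tumour for those the results turn on; list genes were taken in list order among those called, at most 4 a list with test values, and the 8 most similar genes by mean r. Genes named beyond it (all called genes of the GTPase list, Socs1, Nlrc5, Oasl2, Gbp9, Usp18, Ifit1, Ifit3 and the endothelial markers) were chosen after their values were seen. The values of 1 gene of the signalling list are not reported here.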

Additional observations from a re-analysis of the deposited data

Results flagged for a closer look

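For 5 genes the ratio of tumour cells over macrophages pointed in opposite directions in different tumours by more than counting error (95% intervals that did not hold 1, on both sides), with 1 tumour per clone and the difference not tested. These are ratios of CPM without TMM, which moved the median gene by -0.36 in this contrast. The values above 0 given here for Gbp4, Gbp5, Irgm1 and Igtp are of about that size or smaller. By CPM, 65.4% of all tested genes were higher in the tumour cells of E. The log2 ratio of Gbp4 was 0.374 in E and -2.24 in the parental tumour. In tumour cells of E without macrophage markers it was -0.59, within counting error. That of Gbp5 was 0.257 in EM2 and -1.24 in E. Irgm1 stood at 0.271 in E and -0.532 in M. Igtp stood at 0.372 in EM2 and -0.744 in EM3. Iigp1 was at 1.56 in E and -1.02 in EM3. E, where 3 of these 5 genes were above 0 by most, also had the highest macrophage-marker level in its tumour cells, a median of 3.27% of that in macrophages; its part in these ratios was not tested. Gbp3 and Gbp6 were each above 1 in 5 tumours and below it in 1, where the difference was within counting error. None of the 10 genes had a tumour set apart from the other 5 by Dixon's test at the 95% level.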

How the results depend on the processing

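Gbp2, Gbp4 and Gbp7 kept their direction and their call between tumour cells and macrophages in all 15 alternatives run, and Irf1 in 14, with its call lost without the block. The block was the tumour, whose pairing comes from the design. With no replicate block, the set counted 1 gene higher and 2 lower in tumour cells; in the CD45 libraries it counted 1 lower in B cells, 0 lower in dendritic cells, 1 lower in NK cells, 0 higher in Other Myeloid, and 2 higher and 0 lower in T/Myeloid Hybrid. Calls over all genes in that comparison numbered 10523 with the block and 9759 without it. Without TMM, 2 genes were lower in tumour cells, 3 higher in granulocytes, 5 higher and 1 lower in NK cells, 4 higher in Other Myeloid and 0 lower in T/Myeloid Hybrid. With all deposited cells, 0 were lower in T/Myeloid Hybrid (22.8% of all genes). Leaving out 1 tumour gave 0 to 2 genes higher in Other Myeloid (16.7% to 20.2% of all genes), and 3 to 5 higher (17.6% to 20.3%) and 0 to 1 lower (18.3% to 20%) in T/Myeloid Hybrid. Gbp3 turned to 0.22 without TMM and 0.063 with no filter in tumour cells, and in granulocytes to -0.051 with no replicate block and -0.83 without TMM. Gbp6 in tumour cells turned to -0.26 in cells without macrophage markers, and leaving out 1 tumour moved it from -0.10 to 0.18. Iigp1 in T cells turned to -0.041 with no replicate block. Iigp1 was called lower in tumour cells under 4 alternatives, 1 of them without E. The cause was not tested for any of these. Depth sets how low a level can be read: the 95% intervals of the B-cell and NK-cell sums with 0 UMIs of Iigp1 reached up to 5.71 to 63.6 CPM.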
